A study of Mus musculus with 21 samples.

Results

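Kinesins are motor proteins that use ATP to move along microtubules or to take microtubule ends apart. Spindle kinesins cross-link, slide and shorten the microtubules of dividing cells and build the midbody between daughter cells, transport kinesins carry vesicles, organelles and RNA particles towards the plus ends of microtubules, and a further group acts in cilia and flagella. In male germ cells the same motors meet successive microtubule arrays, from the meiotic spindles to the manchette, a skirt of microtubules that surrounds the nucleus of elongating spermatids, and the axoneme of the sperm tail.

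The genes described here were all rows of the deposited count tables whose symbol begins with Kif or Kifc followed by a digit, which gave 44 of 24456 genes. By known role, 15 were assigned to the spindle, 15 to transport, 6 to cilia and axonemes, and 5 to other or unclear roles. The remaining 3 rows encode no motor: Kif1bp is a kinesin-binding protein, Kif4-ps a pseudogene, and Kif16bos a transcript on the strand opposite Kif16b. In the annotation used here Kif16bos lies beyond the start of Kif16b and does not overlap it. Kif12 had 1 count over all libraries and was not tested, which left 43 rows for the stage comparisons.

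The study sequenced the RNA of germ cell fractions from wild-type mouse testes and from testes deficient in the histone variant H2A.L.2 (H2al2 KO), in 21 libraries. There were 3 wild-type and 3 KO libraries of pachytene spermatocytes (meiotic prophase), and as many of round spermatids (haploid, before nuclear compaction) and of condensing spermatids, whereas spermatozoa were represented by 2 wild-type libraries and 1 KO library. Strain, age and purity of the fractions were not given in the sources used here, and since the labels do not tie libraries to separate animals, p-values measure the spread between libraries. The total RNA was depleted of ribosomal RNA, and since levels are relative to all RNA of a fraction, fewer cells of a type and less RNA per cell cannot be told apart.

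Counts on genes were 5799060 to 8201682 per library in the first 3 stages and 2772995 to 3450580 in spermatozoa. The targeted gene, listed as H2afb1, was at 14.5 to 40.5 normalised CPM (counts scaled by the library's effective total) in wild-type and 3.14 to 4.91 in KO pachytene spermatocytes. In round spermatids its level was 201 to 212 against 20.7 to 25.4, at the condensing stage 160 to 250 against 26.4 to 35.7, and in spermatozoa 45.8 and 58.2 against 14.8. Marker genes followed the labelled stages, with exceptions. Elongating spermatid markers overlapped in sum between wild-type round (27521 to 30168 CPM) and condensing libraries (28003 to 41086), with 2 of 10 called higher. Pachytene markers overlapped as well (1115 to 1158 and 972 to 1257), with 4 called higher and 4 lower. Round spermatid markers went from 2236 to 2391 down to 1486 to 1597, with 8 of 10 called lower and 1 higher. Wild-type pachytene replicate 3 had a summed level of elongating spermatid markers of 2276 CPM, against 5422 and 5659 in the other 2 wild-type libraries and 3011 to 3269 in the KO. Macrophage markers summed to 929 and 981 CPM in wild-type and 4404 in KO spermatozoa, against at most 74.8 in the other libraries. Wild-type round replicates 2 and 3 differed by little more than counting noise in genes of medium count (mean chi-square of 1.06 per gene, against 1.9 to 12.17 in the other pairs). They differed by more in the most abundant genes (8.76), and were kept as separate libraries. If they are not independent, SDs, SEs and p-values that use the wild-type round libraries are too small.

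The family as a whole took a larger share of the RNA in round spermatids than in any other stage. Summed over the 44 rows, it stood at 3301 to 3513 CPM in wild-type pachytene spermatocytes, 5284 to 5466 at the round stage, 4265 to 4686 at the condensing stage, and 2656 and 2837 in spermatozoa, with no overlap between stages. The KO libraries gave 3260 to 3415, 5316 to 5463 and 4396 to 4885, and the KO spermatozoa library 2051. At least 1 CPM on average was reached by 42 rows in wild-type pachytene spermatocytes, 42 at the round stage, 43 at the condensing stage and 42 in spermatozoa. Besides Kif12, the rows under 1 CPM were Kif26b in pachytene spermatocytes (0.658), Kifc2 at the round stage (0.743) and Kif26a in spermatozoa (0.618).

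A few motors gave a large part of this RNA. Per kilobase of exon, Kif2b, a microtubule-depolymerising kinesin of the kinesin-13 family, led in wild-type round spermatids with 426 ± 19.3 CPM per kb (SD, n = 3) and alone gave 17.7% of kinesin counts. Kif17, a transport motor that moves an activator of spermatid transcription between nucleus and cytoplasm, followed with 183 ± 0.435, and Kif27, a kinesin of motile cilia, with 133 ± 12.7. Kif2b stood clear of Kif17, and Kif17 of Kif27, whereas Kif27 overlapped the next gene, Kif2c. In pachytene spermatocytes the first 3 ranks were held by Kif2b (102 ± 31), Kif9 (95.2 ± 7.35) and Kif3b (89.4 ± 3.04), whose levels per kilobase overlapped. In condensing spermatids Kif2b (284 ± 11.2) and Kif17 (201 ± 23.7) kept the first 2 ranks without overlap, and Kif2c came next with 132 ± 33, overlapping Kif27. In the 2 wild-type spermatozoa libraries Kif17 led with 176 ± 12.2, followed by Kif2c with 112 ± 2.58 and Kif9 with 46.5 ± 11.4 CPM per kb.

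**Figure D1:**
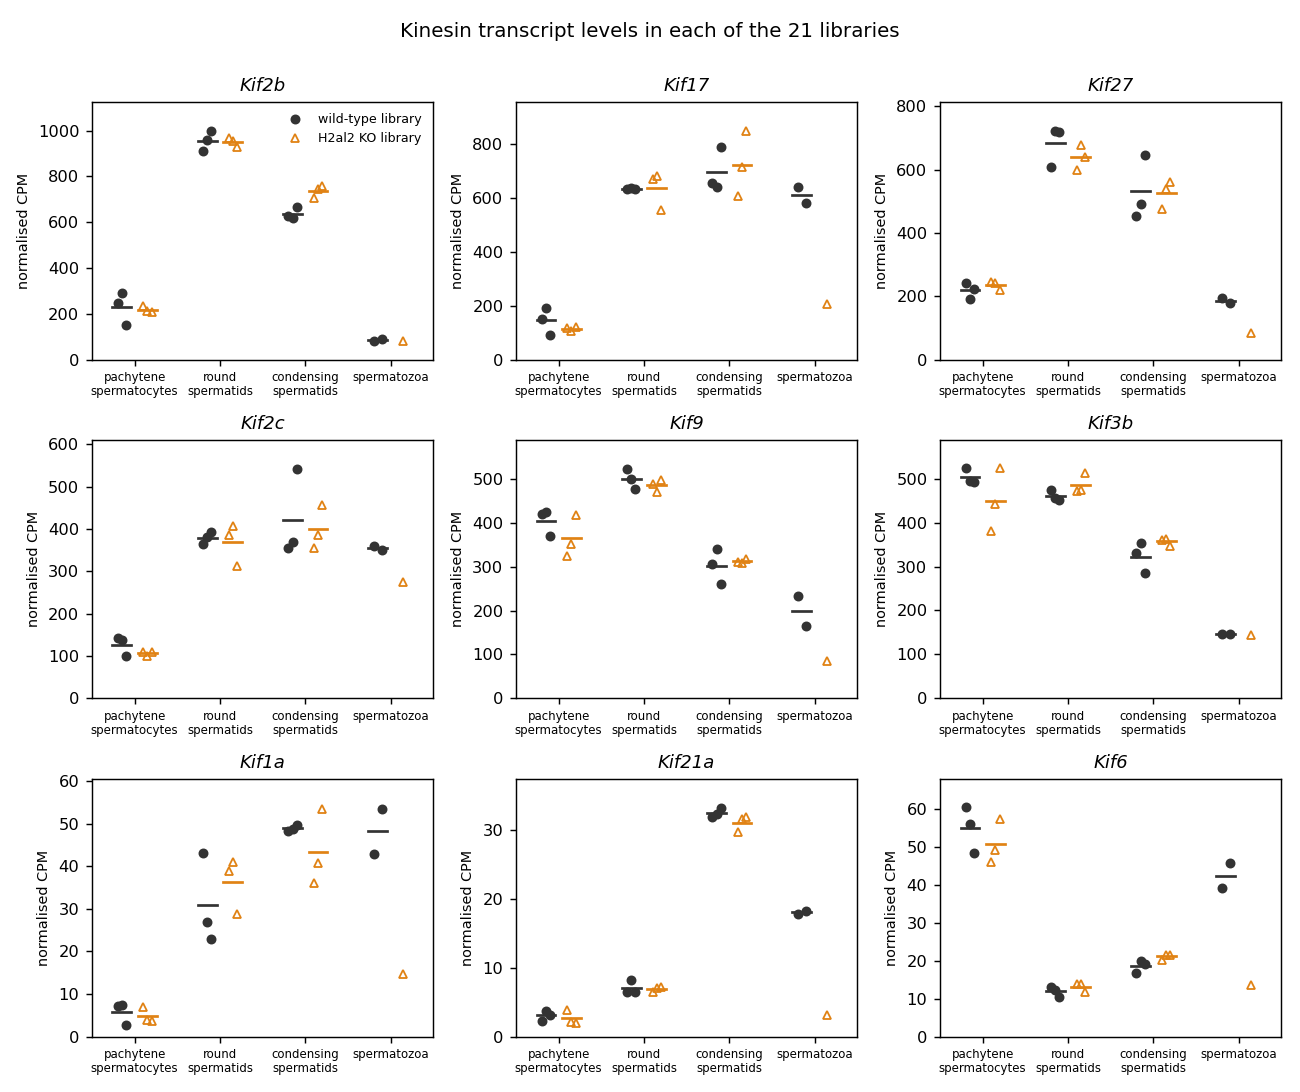
Normalised CPM (vertical axis, from 0) of 9 kinesins in each of the 21 libraries by stage, with wild-type libraries as filled circles, H2al2 KO libraries as open triangles and bars at the mean of groups with 2 or 3 libraries. Kif2b, Kif17, Kif27 and Kif2c stand higher in every round spermatid library than in any pachytene library, Kif21a is highest in condensing spermatids, and in wild type Kif6 is lowest in round spermatids.

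Between pachytene spermatocytes and round spermatids kinesins moved in both directions within the main roles. In wild type 21 of the 43 rows tested rose and 13 fell (edgeR quasi-likelihood test, Benjamini-Hochberg adjusted p under 0.05). Over all genes tested 34.4% were called higher and 35.9% lower, and the kinesin shares were not compared with these by a test. Of the spindle kinesins 8 rose and 5 fell, with a median log2 fold change of 0.42, and of the transport kinesins 6 rose and 4 fell, with a median of -0.11, beside a median of -0.016 over all genes tested. The ciliary and axonemal kinesins had 2 higher and 3 lower, and the others 3 higher and none lower. Markers of other cells moved at the same step. Leydig cell markers summed to 88.6 to 186 CPM in wild-type pachytene and 15.0 to 18.1 in round libraries, with 9 of 10 called lower, and macrophage markers to 4.97 to 12.9 and 31.4 to 36.8, with 7 of the 8 tested called higher. Sertoli cell markers had 3 of the 8 tested called higher, and the part of these cells in the kinesin changes was not tested.

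The rise of the spindle list rested on the kinesin-13 group. Kif2b stood at 247, 289 and 153 CPM in the wild-type pachytene libraries, 911, 960 and 997 in the round and 626, 620 and 666 in the condensing libraries. Every round library was thus above every condensing library, and those above every pachytene library. Its log2 fold change was 2.08 ± 0.19 (SE) from pachytene to round (edgeR adjusted p = 6.18e-07) and -0.56 ± 0.18 from round to condensing spermatids (adjusted p = 0.0214), the latter called under 9 of 12 alternative settings. Kif2b lies on mm10 chromosome 11 from 91575315 to 91577558 on the minus strand, and its annotated exon of 2244 bases spans the gene.

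Kif2c, the kinesin-13 that corrects wrong attachments at centromeres, was at 141, 137 and 100 CPM in pachytene, 364, 380 and 392 in round and 354, 369 and 543 in condensing libraries. It rose by 1.61 ± 0.18 on the log2 scale (edgeR adjusted p = 3.87e-06), and its round and condensing libraries overlapped. Kif2a, the other member, which also trims microtubules outside the spindle, rose less, by 0.42 ± 0.15 (edgeR adjusted p = 0.022), from 256 to 383 CPM to 408 to 437. Without these 3 genes, a split made after the values were seen, the spindle kinesins summed to 454 to 602 CPM in wild-type pachytene and 527 to 539 in round libraries, which overlap, and to 380 to 459 in condensing libraries. With them the sums were 1137 to 1261, 2222 to 2348 and 1713 to 1856.

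Of the remaining spindle kinesins, 5 also rose. Kif23, the motor of the centralspindlin complex needed for midbodies and for the intercellular bridges of germ cells, was at 31.1, 27.6 and 30.7 CPM in pachytene, 69.5, 72.5 and 73.2 in round, and 42.6, 39.9 and 39.2 in condensing libraries. It rose by 1.29 ± 0.11 on the log2 scale (edgeR adjusted p = 3.87e-07) and then fell by 0.80 (SE 0.11, adjusted p = 9.08e-05), with no overlap between stages. Kif18b, a kinesin-8 of astral microtubules, was at 47.6, 54.9 and 34.5 CPM, then 100, 84.6 and 92.7, then 50.2, 49.8 and 27.6. Its changes were 1.04 ± 0.21 (edgeR adjusted p = 0.000582) and -1.09 ± 0.21 (adjusted p = 0.00104), and its condensing libraries overlapped the pachytene ones. Kif22, a chromosome-arm motor, went from 18.4, 20.9 and 14.6 CPM to 31.4, 25.2 and 24.2 and back to 12.9, 22.1 and 12.1, with changes of 0.60 ± 0.21 and -0.75 ± 0.22 (edgeR adjusted p = 0.0201 and 0.0118). Kif4, a chromokinesin, rose at a low level, from 3.07 to 5.33 CPM to 9.72 to 11.9, by 1.31 ± 0.25 (edgeR adjusted p = 0.000367). Kif18a, the kinesin-8 that dampens chromosome movements, rose by 0.89 ± 0.29 (edgeR adjusted p = 0.0141) with overlapping libraries, at 9.36 to 27.5 CPM in pachytene and 26.3 to 41.7 in round libraries.

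The spindle kinesins that fell include motors of spindle poles and of the midzone. Kif11, the tetrameric kinesin-5 that pushes spindle poles apart, went from 39.2 to 86.8 CPM in pachytene to 33.2 to 35.3 CPM in round libraries, a change of -0.89 ± 0.22 on the log2 scale (edgeR adjusted p = 0.00301). Kif15, which can stand in for it, changed by -0.56 ± 0.21 (edgeR adjusted p = 0.0305) with overlapping libraries, and Kif14, a midzone motor, by -0.41 ± 0.14 (adjusted p = 0.0158). Kif20a, a midzone motor of cytokinesis, was at 163 to 181 CPM in pachytene, 130 to 152 in round and 78.5 to 103 in condensing libraries, the single motor called lower at both steps. Its changes were -0.32 ± 0.13 and -0.53 ± 0.13 (edgeR adjusted p = 0.0374 and 0.00433). The first was called under 7 of 12 alternative settings, and not in the KO. Kif20b varied too much among the wild-type pachytene libraries (41.8, 19.7 and 89.5 CPM) for a call.

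Kifc1 and Kifc5b, kinesin-14 motors that walk to minus ends, are closely similar copies. Kifc5b was at 9.45, 10.7 and 8.76 CPM in pachytene, 2.68, 1.95 and 3.05 in round, and 2.92, 2.61 and 3.69 in condensing libraries. It fell by 1.88 on the log2 scale (SE 0.22, edgeR adjusted p = 5.76e-06), with no overlap. Kifc1, which has been placed at the manchette and the forming acrosome, was at 11.6, 13.4 and 8.62 CPM, then 11.1, 8.22 and 11, then 8.14, 6.53 and 4.74, with log2 fold changes of -0.13 ± 0.22 (edgeR adjusted p = 0.611) and -0.61 ± 0.23 (adjusted p = 0.044). Of all stretches of 75 bases in Kifc1 transcripts 25.4% also occur in Kifc5b and 24.5% the other way, and which read pairs were lost to this likeness was not measured. With their counts summed the pair changed by -0.70 (edgeR adjusted p = 0.00277) and -0.38 (adjusted p = 0.108), so that how the fall is divided between the 2 copies is uncertain.

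**Figure D2:**
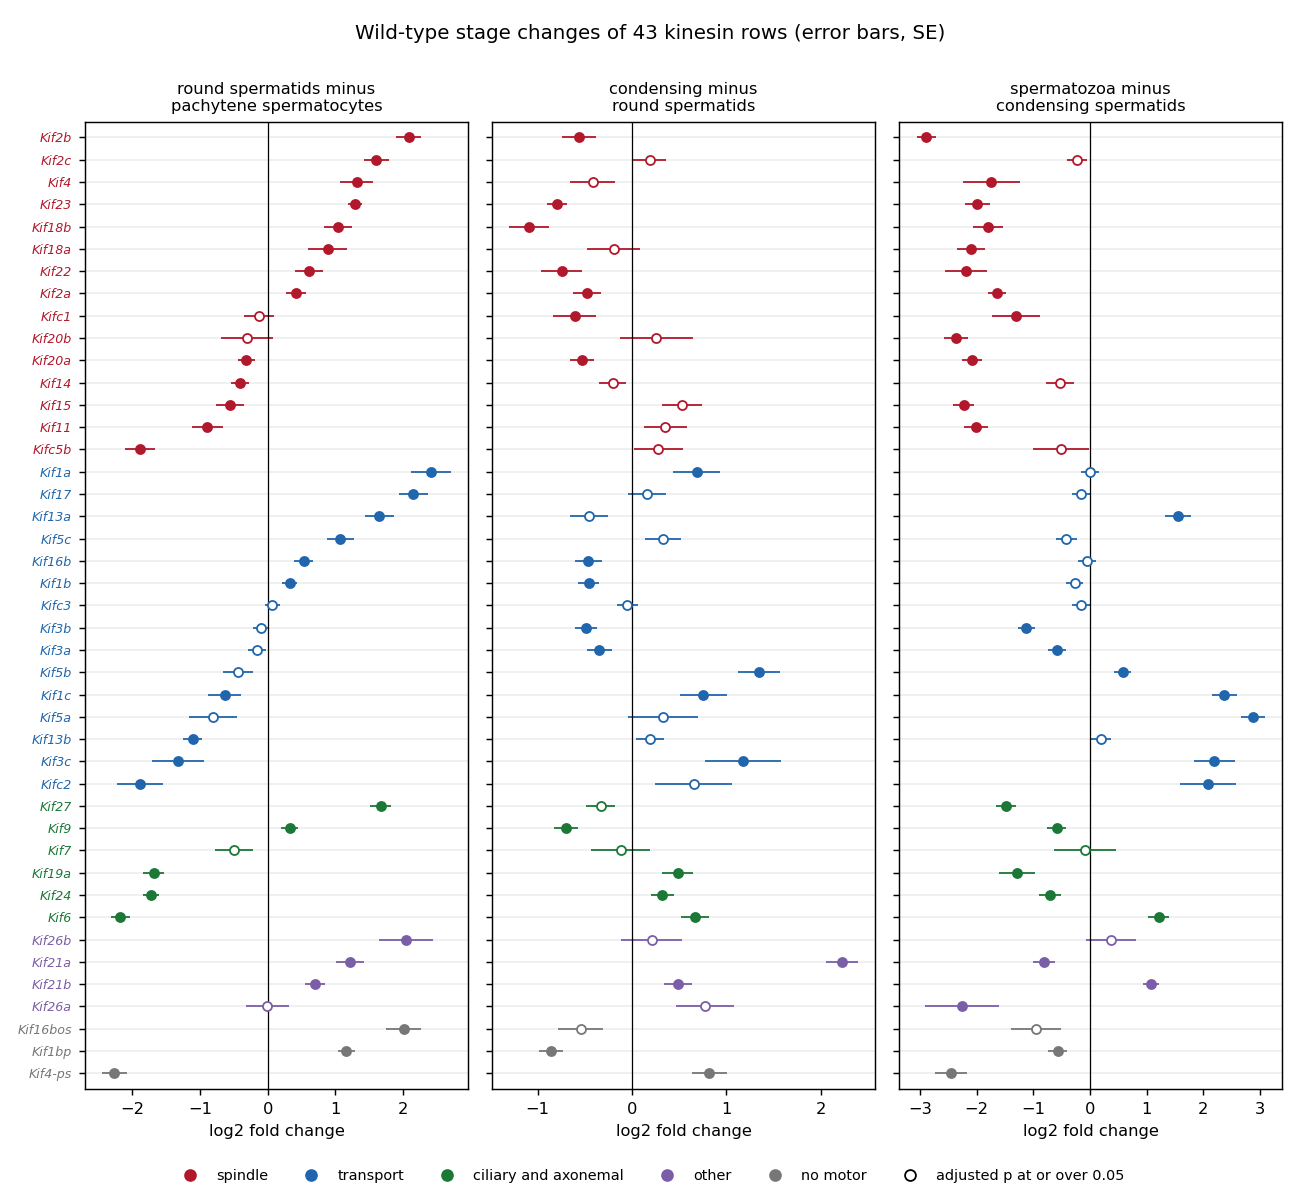
Log2 fold change (horizontal axis) with its SE for the 43 kinesin rows tested in 3 wild-type comparisons, coloured by role and filled where the edgeR adjusted p was under 0.05. Spindle kinesins lie on both sides of 0 at the first step, and none of them is called higher at the later steps.

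Transport kinesins held the largest rise of the family. Kif1a, the carrier of synaptic vesicle precursors in neurons, was at 7.29, 7.35 and 2.78 CPM in wild-type pachytene, 43.1, 26.9 and 22.9 in round, and 48.4, 48.9 and 49.7 in condensing libraries. It rose by 2.41 ± 0.29 on the log2 scale (edgeR adjusted p = 7.43e-06), and by a further 0.69 ± 0.25 (adjusted p = 0.0357) at the next step. Each stage was above the one before without overlap.

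Kif17 reached a plateau at the round stage. Its levels were 151, 192 and 92 CPM in wild-type pachytene, 632, 635 and 633 in round, 653, 641 and 788 in condensing libraries, and 639 and 579 in spermatozoa. The rise was 2.15 ± 0.21 on the log2 scale (edgeR adjusted p = 1.2e-06), and the later changes of 0.16 ± 0.20 and -0.16 ± 0.16 were not called (adjusted p = 0.535 and 0.369). The gene lies on mm10 chromosome 4 from 138250435 to 138301967 on the plus strand. Kif13a and Kif5c, a vesicle carrier and a neuronal form of conventional kinesin, also rose, by 1.65 ± 0.21 and 1.07 ± 0.20 on the log2 scale (edgeR adjusted p = 1.45e-05 and 0.000325), at levels of 7.78 to 12.1 and 30.1 to 32.5 CPM in round libraries. Kif16b and Kif1b, carriers of endosomes and of vesicles and mitochondria, rose by 0.53 ± 0.14 and 0.32 ± 0.11 and then fell by 0.46 each (edgeR adjusted p = 0.00487, 0.0176, 0.0174 and 0.0039).

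Kif3a and Kif3b are the kinesin-2 motors that drive intraflagellar transport as a trimer with the adaptor Kifap3. In wild type neither was called at the first step, whereas Kifap3 rose. Kif3b was at 524, 496 and 493 CPM in pachytene, 474, 457 and 453 in round and 330, 353 and 286 in condensing libraries, and its change at the first step, -0.11 ± 0.11 on the log2 scale, was not called (edgeR adjusted p = 0.429). It changed by -0.49 ± 0.12 at the second (adjusted p = 0.00366), with no overlap. Kif3a, at 132, 103 and 132 CPM, then 95.1, 113 and 115, then 78.1, 82.1 and 89.5, changed by -0.16 ± 0.13 (edgeR adjusted p = 0.303) and -0.35 ± 0.14 (adjusted p = 0.049). The adaptor Kifap3 rose by 1.73 on the log2 scale, from 150 to 177 CPM to 493 to 541, and then changed by -0.42 (edgeR adjusted p = 0.0138), to 350 to 429 in condensing spermatids, below every round library. Kif3c, the alternative partner of Kif3a, was low, at 2.39, 3.67 and 1.75 CPM, then 1.07, 0.976 and 1.02, then 2.46, 2.9 and 1.4, with changes of -1.33 ± 0.38 and 1.17 ± 0.40 (edgeR adjusted p = 0.00726 and 0.0276).

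The chains of conventional kinesin (kinesin-1) differed in the step at which they rose. The ubiquitous heavy chain Kif5b was at 23.6, 15.2 and 33.2 CPM in wild-type pachytene, 17.3, 19.2 and 15.4 in round and 41.3, 42.2 and 46.2 in condensing libraries. Its rise of 1.35 ± 0.22 on the log2 scale at the second step (edgeR adjusted p = 0.000368) brought every condensing library above every earlier one. Kif5a, a neuronal form, was not called at either step, while Kif5c rose at the first, as given above. Of the light chains, which bind the cargo, Klc3, known from the mitochondrial sheath and outer dense fibres of the sperm tail, was at 4.42, 5.45 and 1.90 CPM in pachytene, 22.8, 25.8 and 21.2 in round, and 23.7, 23.5 and 33.7 in condensing libraries. Klc3 rose by 2.55 on the log2 scale (edgeR), while Klc1 and Klc2 changed by -1.10 and -0.93.

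Other transport kinesins fell towards round spermatids. Kifc2, a motor described in neurons, was near the limit of the depth, at 2.75, 2.37 and 3.51 CPM in pachytene and 0.805, 0.697 and 0.726 in round libraries (log2 fold change -1.89 ± 0.34, edgeR adjusted p = 0.000249). Kif13b, a carrier of vesicles, fell from 47.2 to 58.7 CPM to 22.1 to 28.3, by 1.11 on the log2 scale (SE 0.14, edgeR adjusted p = 1.41e-05). Kif1c, a carrier between Golgi and cell periphery, went from 7.29, 10.8 and 10.2 CPM to 4.56, 6.41 and 6.97 and back to 12.6, 9.72 and 7.20, with changes of -0.64 ± 0.25 and 0.75 ± 0.25 (edgeR adjusted p = 0.0338 and 0.0235). Kifc3, a minus-end motor of adherens junctions, was neither called at the first nor the second step, at 59.0 to 73.8 CPM in the 9 libraries.

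Ciliary and axonemal kinesins also moved in both directions. Kif27, a relative of the hedgehog regulator Kif7, was at 242, 191 and 222 CPM in pachytene, 608, 723 and 718 in round, and 455, 493 and 647 in condensing libraries, a rise of 1.67 ± 0.16 on the log2 scale (edgeR adjusted p = 9.31e-07) followed by an uncalled change of -0.33 ± 0.15 (adjusted p = 0.0902). Kif9, a kinesin of the axoneme's central apparatus, was at 421, 426 and 370 CPM, then 524, 500 and 477, then 307, 341 and 261, with changes of 0.33 ± 0.13 and -0.70 ± 0.13 (edgeR adjusted p = 0.0328 and 0.000656). Kif6, a kinesin of motile cilia, ran against both, at 60.5, 56.2 and 48.3 CPM, then 13.1, 12.3 and 10.5, then 16.9, 19.9 and 19.1. Its changes were -2.18 ± 0.14 and 0.67 ± 0.15 (edgeR adjusted p = 5.23e-08 and 0.00256). Kif24, which limits the growth of cilia at the centriole, fell from 121, 113 and 110 CPM to 36.6, 30 and 36.3, by 1.72 on the log2 scale (SE 0.12, edgeR adjusted p = 8.51e-08), and Kif19a, which shortens ciliary tips, by 1.69 (SE 0.16, adjusted p = 7.84e-07). Kif7 was at 1.67 to 3.91 CPM in these 9 libraries and was not called.

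Kif21a and Kif21b, which slow microtubule growth, rose at both steps. Kif21a was at 2.27, 3.79 and 3.21 CPM in pachytene, 6.44, 8.22 and 6.53 in round and 32.0, 32.4 and 33.2 in condensing libraries. Its log2 fold changes were 1.21 ± 0.21 and 2.23 ± 0.17 (edgeR adjusted p = 0.000157 and 1.02e-06), the second being the largest rise of any kinesin from round to condensing spermatids. Kif21b rose by 0.69 ± 0.15 and 0.49 ± 0.15 (edgeR adjusted p = 0.000949 and 0.0144). Kif26b, a kinesin without motor activity, rose from 0.478, 0.474 and 1.02 CPM to 2.82, 2.09 and 3.05 (log2 fold change 2.05 ± 0.40, edgeR adjusted p = 0.000494).

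The 3 rows without a motor were also called at the first step. Kif16bos was at 2.39, 1.90 and 1.31 CPM in pachytene and 6.98, 7.53 and 8.13 in round libraries (log2 fold change 2.01 ± 0.26, edgeR adjusted p = 1.62e-05). The pseudogene Kif4-ps was at 74.8, 55.3 and 83.5 CPM, then 15.3, 15.7 and 12.6, then 26.4, 28.4 and 20.7, the largest fall among the 43 rows at the first step (-2.27 ± 0.18, edgeR adjusted p = 2.32e-07), while its parent Kif4 rose. No stretch of 75 bases was shared between their annotated transcripts. Kif1bp, which blocks several kinesins from binding microtubules, was at 48.8, 55.2 and 40.2 CPM, then 107, 105 and 106, then 60.5, 56.2 and 55.3, with changes of 1.16 ± 0.12 and -0.86 ± 0.12 (edgeR adjusted p = 2.37e-06 and 0.00013).

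From round to condensing spermatids in wild type 10 of 43 kinesin rows rose and 13 fell (edgeR), where over all genes 28.3% were called higher and 21.8% lower. None of the 15 spindle kinesins rose and 7 fell, with a median log2 fold change of -0.42. Of the transport kinesins 4 rose and 4 fell, with a median of 0.19, beside 0.043 over all genes. The rises were led by Kif21a, Kif5b, Kif3c, Kif4-ps and Kif1c, and the falls by Kif18b, Kif1bp, Kif23, Kif22 and Kif9, whose values are given above. Of the 21 rows that had risen before, 9 now fell, 3 rose again and 9 were not called, but both steps use the same round libraries. Leydig cell markers summed to 178 to 276 CPM in wild-type condensing libraries against 15.0 to 18.1 in round libraries, with all 10 of 10 called higher, and Sertoli cell markers to 517 to 675 against 53.6 to 70.3, with 8 of the 8 tested called higher; their part in the rises of kinesins was not tested. Without replicate 1 of each stage the falls called numbered 4 and the rises 5, and without replicate 2 the rises numbered 5. Over all genes 2920 rose and 1619 fell of 14055 without replicate 1, and 2985 and 2336 of 14097 without replicate 2. With all replicates these were 3961 and 3048 of 14011.

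**Figure D3:**
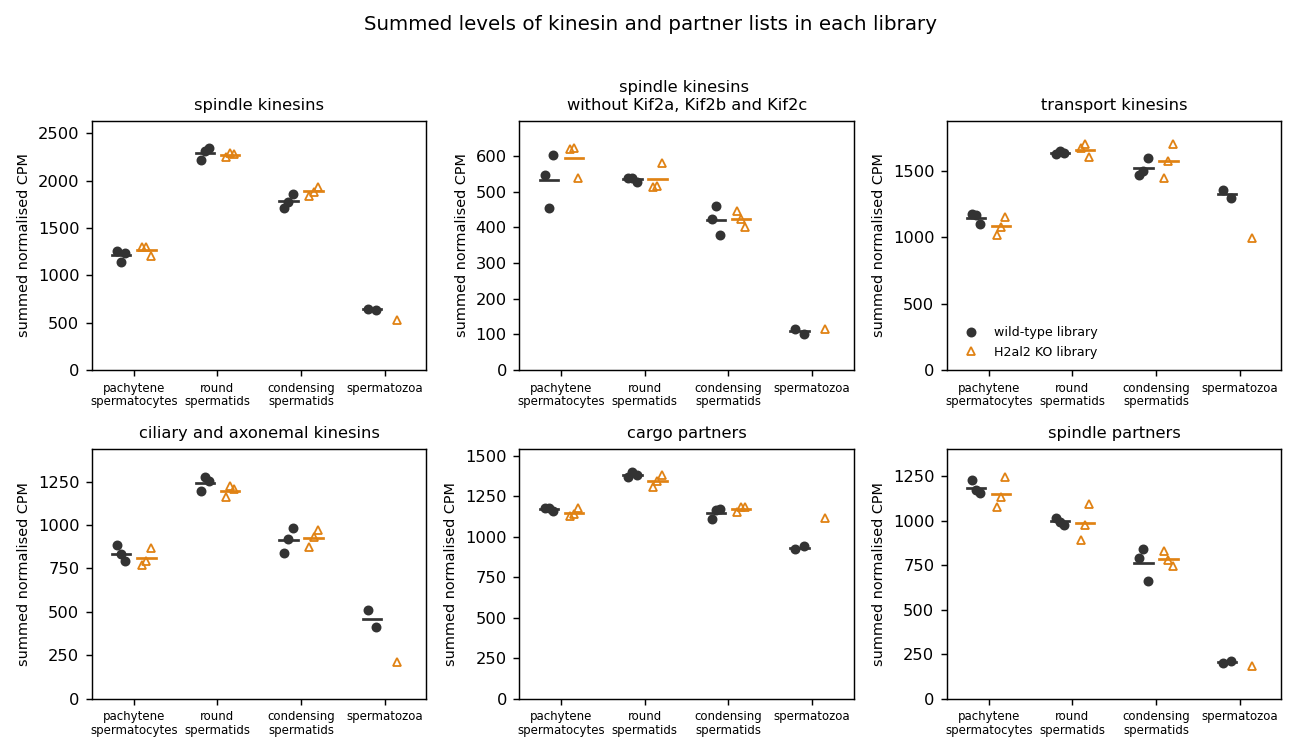
Summed normalised CPM (vertical axis, from 0) of kinesin and partner lists in each library by stage, with wild-type libraries as filled circles, H2al2 KO libraries as open triangles and bars at group means. Spindle kinesins rise to 2222 to 2348 CPM in wild-type round spermatids, but without Kif2a, Kif2b and Kif2c their round libraries (527 to 539) lie within the pachytene range (454 to 602), and spindle partners decline from stage to stage.

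The partners of spindle kinesins showed the opposite balance at the first step. Of 13 proteins that load, regulate or work beside spindle motors, 2 rose and 8 fell from pachytene to round spermatids in wild type, with a median log2 fold change of -0.56, where 34.4% of all genes were called higher and 35.9% lower. Cenpe, itself a kinesin of the kinetochore that the symbol rule does not reach, and the kinase Plk1 rose, by 1.69 and 1.18. Cdca8, of the chromosomal passenger complex, and Prc1, the midzone bundler on which Kif4 and Kif14 act, changed by -2.01 and -1.77 (edgeR). Racgap1, the partner of Kif23 in centralspindlin, changed by -0.65, from 79.3 to 49.6 CPM on average, while Kif23 rose.

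The 18 cargo partners of transport kinesins had 4 higher and 8 lower at the first step (median -0.44), beside 34.4% and 35.9% of all genes, and 8 higher and 5 lower at the second (median 0.22), beside 28.3% and 21.8%. Those higher at the first step were Klc3, Kifap3, Mapk8ip1 and Spag9, of which the last 2 are JNK scaffolds bound by kinesin-1. Among those lower, Rhot2, a mitochondrial receptor for kinesin, changed by -2.44 and Madd, the adaptor of Kif1a and Kif1b for synaptic vesicle proteins, by -2.13. Arl8a, a lysosomal GTPase that recruits kinesins, had the largest later rise, 3.19, from 0.268 to 1.45 CPM in round to 6.76 to 10.4 in condensing libraries.

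In wild-type spermatozoa most spindle kinesins were lower than in condensing spermatids, and transport kinesins were divided. Of 43 rows 8 rose and 22 fell (edgeR), with 36.6% of all genes called higher and 35.8% lower. None of the spindle kinesins rose and 12 of 15 fell, with a median log2 fold change of -1.98, and all 13 spindle partners fell, with a median of -1.75. Of the transport kinesins 6 rose and 2 fell, with a median of 0.00, beside 0.0 over all genes. These libraries hold macrophage marker RNA (8 of 10 markers called higher, from 52.0 to 74.8 CPM in sum to 929 and 981), and its part in the rises was not tested.

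The largest fall in spermatozoa was that of Kif2b, to 80.0 and 88.9 CPM (log2 fold change -2.89 ± 0.17, edgeR adjusted p = 3.6e-12). Kif2c did not follow it, with 361 and 350 CPM and a change of -0.22 ± 0.18 (edgeR adjusted p = 0.273). Kif14 and Kifc5b were likewise not called. Kif23 fell to 12.1 and 7.76 CPM, Kif18b to 11.8 and 12.3, Kif22 to 2.94 and 3.88, and Kifc1 to 2.35 and 2.82, all below every condensing library, while Kifc5b was at 1.76 and 2.47. Kif3b (146 in both) and Kif3a (59.7 and 49.0) fell as well, as did Kif27 (195 and 178), Kif9 (233 and 164), Kif24 (30.6 and 19.4), Kif21a (17.9 and 18.3), Kif4-ps (4.12 and 4.94) and Kif1bp (41.8 and 33.9 CPM). Kif1a was at 42.9 and 53.6 CPM, Klc3 at 12.6 and 13.0, Kif26b at 3.82 and 3.88, and Kif16bos at 2.65 and 2.47, of which Klc3 alone was called, as lower. The rises were of Kif5a (57.1 and 47.6 CPM, 2.88 ± 0.21 on the log2 scale, edgeR adjusted p = 1.09e-10), Kif1c (41.5 and 60.0 CPM, 2.38 ± 0.22, adjusted p = 5.11e-09), Kif3c (10.9 and 9.88 CPM, 2.20 ± 0.36, adjusted p = 1.55e-05), Kifc2 (6.47 and 3.17 CPM), Kif13a (20.9 and 22.6 CPM) and Kif5b (62.4 and 64.5 CPM) among transport kinesins, and of Kif6 (39.1 and 45.8 CPM, 1.21 ± 0.18, adjusted p = 3.93e-06) and Kif21b (256 and 247 CPM, 1.09 ± 0.14, adjusted p = 5.51e-07). In the KO spermatozoa library, which had the higher macrophage marker level, Kif1c (102 CPM) and Kif5b (129) were above both wild-type libraries, and Kif5a (7.38) and Kif6 (13.5) below them. This difference is between single libraries and was not tested.

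The sequences around RefSeq start sites of these genes were read to see which regulatory letters the spindle and transport kinesins share. RefSeq promoter windows on GRCm38.p6, from 250 bases before to 50 after the start, were matched for 34 of the 44 rows (38 windows, of 32851 in all). Searched on both strands, with no motif containing another, were TTTGAA (the core of the cell cycle genes homology region, CHR, bound by repressors of cell cycle genes in resting cells), CCAAT, the cyclic AMP response element TGACGTCA (CRE, bound by CREM in round spermatids), and GTTGCC, one arm of the X-box bound by ciliary RFX factors. TTTGAA was in 73.3% of the 15 spindle windows, belonging to 11 of 14 genes, against 17.9% of all windows and 1 of 12 transport windows. CCAAT was in 60.0% of spindle and 37.4% of all windows, and TGACGTCA in 1.79% of all windows. GTTGCC was in 5 of 12 transport windows (5 of 10 genes) and 3 of 6 ciliary windows (2 of 5 genes), against 12.5% of all.

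The CHR letters did not sort the spindle kinesins by direction. Of the 11 genes with them 5 rose and 4 fell from pachytene to round spermatids, beside 34.4% and 35.9% of all genes. The 3 without them in this window, Kif2a, Kif2b and Kif18a, all rose, but 3 genes are too few for a comparison. Windows of 30 bases around the site nearest to the start are shown for the 11 genes, since they make the shared letters visible in genes that moved in both directions; capitals mark TTTGAA or, where it is on the other strand, TTCAAA, at that site. In Kif20b the same letters follow once more, in lower case. The RefSeq starts of Kif2c, Kif14, Kif4, Kif15, Kif22 and Kifc1 lie inside the annotated genes, downstream of their first base. The windows read 5′ to 3′ on the strand of the gene. First come the genes that rose.
Kif2c (chr4:117178858-117178887, minus strand): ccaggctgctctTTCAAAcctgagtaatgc
Kif4 (chrX:100626072-100626101, plus strand): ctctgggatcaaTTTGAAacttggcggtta
Kif18b (chr11:102925104-102925133, minus strand): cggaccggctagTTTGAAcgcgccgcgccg
Kif22 (chr7:127042420-127042449, minus strand): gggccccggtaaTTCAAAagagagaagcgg
Kif23 (chr9:61946780-61946809, minus strand): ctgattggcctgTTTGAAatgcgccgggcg
The genes that fell were Kif11, Kif14, Kif15 and Kifc5b, and Kifc1 and Kif20b were not called.
Kif11 (chr19:37376351-37376380, plus strand): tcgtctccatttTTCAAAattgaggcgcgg
Kif14 (chr1:136467608-136467637, plus strand): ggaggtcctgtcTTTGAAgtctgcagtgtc
Kif15 (chr9:122951050-122951079, plus strand): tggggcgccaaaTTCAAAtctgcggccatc
Kifc5b (chr17:26917108-26917137, plus strand): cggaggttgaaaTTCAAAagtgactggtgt
Kifc1 (chr17:33890615-33890644, minus strand): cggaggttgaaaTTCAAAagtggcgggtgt
Kif20b (chr19:34922353-34922382, plus strand): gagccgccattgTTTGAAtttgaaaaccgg
Kifc1 and Kifc5b have nearly the same letters here, as in part of their transcripts, although Kifc5b alone was called lower.

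TGACGTCA occurred in the windows of 3 kinesins, Kif17, Kif5c and Kif18a, all called higher in wild-type round than pachytene libraries, as were 21 of the 43 kinesin rows and 34.4% of all genes. In the KO Kif18a was not called (0.11 ± 0.19, edgeR adjusted p = 0.617). The Kif17 window also belongs to a start inside the annotated gene, and its 250 bases before the start are shown because Kif17 was the transport kinesin with the highest level per kilobase in round spermatids. Capitals mark the CRE in all 3 sequences, which begins 86 bases before the start in Kif17, 26 bases before it in Kif5c and 30 bases after it in Kif18a.
Kif17 (chr4:138262001-138262250, plus strand): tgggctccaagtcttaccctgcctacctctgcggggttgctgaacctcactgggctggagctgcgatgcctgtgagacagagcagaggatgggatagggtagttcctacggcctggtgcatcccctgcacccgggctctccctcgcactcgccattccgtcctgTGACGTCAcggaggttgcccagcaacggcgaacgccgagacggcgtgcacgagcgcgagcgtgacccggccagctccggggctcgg
Kif5c (chr2:49619249-49619278, plus strand): gatctctgcagTGACGTCAccgtgccgagg
Kif18a (chr2:109280757-109280786, plus strand): gtctgacgtgcTGACGTCAtccgaacggca
The leading spindle kinesin, Kif2b, had neither TGACGTCA nor TTTGAA in its window. Its 250 bases before the start are shown beside those of Kif17 as the promoter of the kinesin with the highest level per kilobase, with capitals at CCAAT, 44 bases before the start.
Kif2b (chr11:91577556-91577805, minus strand): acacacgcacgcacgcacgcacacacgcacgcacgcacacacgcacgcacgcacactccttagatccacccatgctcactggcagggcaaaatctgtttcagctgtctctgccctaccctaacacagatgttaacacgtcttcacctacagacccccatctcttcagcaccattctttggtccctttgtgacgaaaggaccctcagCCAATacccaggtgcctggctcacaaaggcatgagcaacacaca
These matches describe letters, and binding was not measured.

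**Figure D4:**
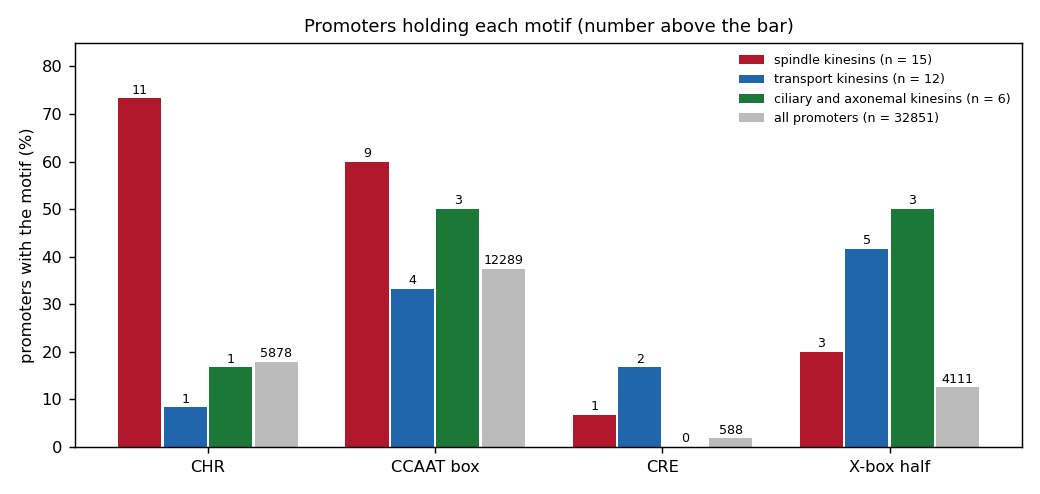
Share of promoter windows (vertical axis, percent, from 0) that hold each of 4 motifs in spindle, transport and ciliary kinesins and in all 32851 windows, with the number of windows above each bar. CHR letters are in 11 of 15 spindle windows and 1 of 12 transport windows, against 17.9% of all windows.

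Most stage changes recurred in the H2al2 KO libraries, which share no library with the wild-type comparisons. From pachytene to round spermatids 21 rows rose and 15 fell in the KO (edgeR), with 36.5% of all genes called higher and 38.4% lower. Of the rises 20 were called in both genotypes, 95.2% of either list, and of the falls 11, which is 84.6% of the wild-type and 73.3% of the KO list. For all genes the shares were 90.0% and 85.5% of the rises and 92.0% and 86.8% of the falls. In the KO Kif2b changed by 2.11 ± 0.10, Kif17 by 2.46 ± 0.12 and Kif1a by 2.91 ± 0.22 on the log2 scale (edgeR adjusted p = 3.77e-13, 9.02e-13 and 3.58e-10). Kif5b, Kif20b, Kif3a and Kif7 were called lower in the KO alone, and Kif1c and Kif20a in wild type alone. Kif5b changed by -1.48 ± 0.16 in the KO (edgeR adjusted p = 9.17e-08), beside -0.44 ± 0.23 in wild type. KO changes were -1.20 ± 0.22 for Kif20b, -0.50 ± 0.11 for Kif3a and -0.92 ± 0.32 for Kif7 (edgeR adjusted p = 6.32e-05, 0.00035 and 0.0152).

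From round to condensing spermatids the KO had 7 rises and 13 falls (edgeR), with 29.7% and 24.5% of all genes called. Called in both genotypes were 5 rises (50% of the wild-type and 71.4% of the KO list) and 11 falls (84.6% of either). Among all genes the shares were 84.2% and 80.9% of the rises and 84.2% and 75.6% of the falls. The kinesin shares rest on 10 wild-type and 7 KO rises, of which 4 and 5 were called under every alternative setting. The shared rises were Kif21a, Kif5b, Kif3c, Kif4-ps and Kif6. Kif1a, Kif1c, Kif19a, Kif21b and Kif24 were called higher in wild type alone. Their uncalled KO changes were 0.27, 0.36, 0.40, 0.26 and 0.14 on the log2 scale. Kif13b and Kif15 were called higher in the KO alone, with uncalled wild-type changes of 0.19 and 0.53. No kinesin row had a called difference between genotypes in these steps (edgeR interaction test).

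In the KO, too, spindle kinesins went both ways from pachytene to round spermatids, with 7 higher and 5 lower. Kif2b was at 233, 212 and 206 CPM in KO pachytene and 966, 955 and 930 in KO round libraries, and Kif2c at 109, 99.0 and 110, then 387, 407 and 312, then 355, 385 and 458 from pachytene to condensing libraries. Kif23 went from 29.1, 35.0 and 25.5 CPM to 62.2, 62.9 and 74.1 and to 38.4, 35.5 and 35.6, and Kif18b from 29.1, 34.7 and 35.4 to 98.2, 89.1 and 95.1 and to 39.5, 39.4 and 40.9. In both, the round libraries stood above all others of the KO. Kif22 was at 16.6, 16.9 and 17.3 CPM, then 32.8, 25.1 and 31.7, then 16.0, 13.1 and 14.9, again highest in round spermatids. Kifc1 was at 8.17, 5.38 and 9.27 CPM, then 9.2, 8.08 and 7.05, then 7.04, 6.5 and 6.29, with overlapping stages. Kifc5b was at 10, 9.03 and 6.42 CPM, then 3.62, 2.65 and 2.88, then 2.16, 2.07 and 2.15, highest in pachytene spermatocytes as in wild type. Kif11 was at 104, 91.9 and 79.7 CPM, then 34.9, 39.5 and 41.6, then 43.8, 46.0 and 39.1, and Kif14 at 35.0, 34.4 and 29.8, then 23.4, 20.1 and 26.5, then 22.0, 20.2 and 16.6. Both were highest in pachytene libraries without overlap. Kif15 was at 115, 121 and 89.5 CPM, then 46.1, 53.9 and 58.0, then 89.7, 81.3 and 75.4, lowest of these stages in round spermatids. Kif20b was at 97.1, 95.0 and 49.9 CPM, then 23.1, 40.1 and 43.9, then 52.2, 52.3 and 46.0. Kif20a was at 142, 147 and 171 CPM, then 153, 134 and 151, then 97.7, 88.9 and 89.2, lowest of these stages in condensing spermatids. Its KO change from pachytene to round spermatids, -0.09 ± 0.10 on the log2 scale, was not called (edgeR adjusted p = 0.413).

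Among KO transport kinesins, Kif1a was at 6.94, 3.8 and 3.57 CPM in pachytene, 39.0, 41.0 and 28.8 in round and 36.2, 40.8 and 53.4 in condensing libraries. Kif17 was at 116, 106 and 119 CPM, then 668, 682 and 555, then 605, 714 and 848. In both, the round and condensing libraries overlapped and lay above pachytene spermatocytes. Kif3b was at 381, 443 and 526 CPM, then 473, 475 and 514, then 360, 364 and 348, and Kif3a at 133, 147 and 124, then 86.4, 107 and 97.6, then 84.8, 82.7 and 82.5. Kif3a was thus highest in pachytene libraries without overlap, where the wild-type stages overlapped. Kif5b dipped to 12.7, 13.1 and 15.1 CPM in KO round libraries and returned to 40.1, 39.4 and 30.8 in condensing ones. Kif3c was at 2.31, 1.9 and 2.57 CPM, then 1.25, 0.882 and 0.719, then 2.3, 1.8 and 2.61. Kif1c stayed between 4.03 and 10 CPM over the 9 KO libraries, with all stages overlapping. Kifc2 was at 3.08, 3.33 and 2.57 CPM, then 1.25, 0.882 and 0.863, then 0.719, 1.94 and 2.3, beside 1.23, 0.871 and 1.4 in wild-type condensing libraries. The light chain Klc3 was at 3.39, 2.53 and 1.85 CPM, then 25.4, 24.5 and 19.7, then 22.4, 23.6 and 29.7, among these stages low in pachytene spermatocytes alone.

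The ciliary kinesins and the other rows named above varied by stage in the KO as well. KO levels of Kif27 were 245, 243 and 220 CPM, then 600, 677 and 640, then 476, 538 and 562, and those of Kif9 were 325, 352 and 419, then 489, 471 and 498, then 312, 309 and 319. Both were highest in round spermatids. Kif6 was at 46.1, 49.1 and 57.4 CPM, then 13.8, 14.0 and 11.8, then 20.3, 21.6 and 21.5, and Kif24 at 125, 119 and 128, then 40.3, 47.5 and 43.6, then 46.8, 47.4 and 48.5, beside 39.6, 44.8 and 41.4 in wild-type condensing libraries. Both were highest in pachytene spermatocytes, and the round and condensing libraries of Kif24 overlapped in the KO but not in wild type. Kif21a was at 3.85, 2.06 and 2.0 CPM, then 6.55, 7.05 and 7.19, then 29.7, 31.7 and 31.9, a stepwise rise without overlap. Kif26b was at 0.617, 0.792 and 0.428 CPM, then 1.95, 3.38 and 2.45, then 2.16, 2.77 and 3.99, beside 3.07, 2.18 and 3.86 in wild-type condensing libraries. Kif16bos was at 0.617, 0.475 and 0.856 CPM, then 6.55, 7.05 and 5.76, then 4.89, 4.84 and 6.75, beside 5.53, 3.63 and 6.14 in wild-type condensing libraries. Kif4-ps was at 64.7, 69.1 and 78.6 CPM, then 14.9, 14.0 and 15.4, then 29.5, 24.5 and 20.7, lowest of these stages in round spermatids. Kif1bp was at 43.6, 54.2 and 49.1 CPM, then 105, 102 and 104, then 61.9, 59.5 and 67.9, highest there.

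Loss of H2A.L.2 gave no called change in any kinesin within a stage. None of 41 rows tested in pachytene spermatocytes, 41 at the round and 42 at the condensing stage passed the threshold (edgeR), and over all genes 0.0%, 0.0156% and 0.00728% did. The counts over all genes turned on single libraries. Without wild-type pachytene replicate 3 there were 156 genes higher and 87 lower in place of 0, and without wild-type round replicate 1 there were 131 and 133 in place of 1 and 1, against at most 1 in each direction without any other library of these stages. The latter fit keeps only wild-type round replicates 2 and 3, which differed by little more than counting noise in genes of medium count. The part of this likeness in its calls was not tested. At the condensing stage, with 0 and 1 called, leaving out wild-type replicate 1, 2 or 3 gave 3 and 1, 4 and 20, and 6 and 3, and leaving out KO replicate 1 gave 0 and 3. At an unadjusted p under 0.05 there were 4 kinesins in pachytene spermatocytes (9.76%, against 6.66% of all genes), 2 at the round stage (4.88%, against 5.88%) and 0 at the condensing stage (against 6.33%). The log2 differences, KO minus wild type, ran from -0.49 to 0.72 in pachytene spermatocytes, from -0.33 to 0.36 at the round stage and from -0.53 to 0.30 at the condensing stage.

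SEs were smallest for the abundant kinesins of round spermatids. They are too small if wild-type round replicates 2 and 3 are not independent. Kif2b stood at 966, 955 and 930 CPM in the KO beside 911, 960 and 997 in wild type (log2 difference 0.00 ± 0.07), Kif17 at 668, 682 and 555 beside 632, 635 and 633 (0.02 ± 0.09), and Kif27 at 600, 677 and 640 beside 608, 723 and 718 (-0.08 ± 0.09). For rare motors the same data allow much larger differences, as in Kif26a (0.08 ± 0.40) and Kif7 (-0.04 ± 0.38). In condensing spermatids the KO libraries of Kif2b (706, 743 and 759 CPM) were all above the wild-type ones (626, 620 and 666), with a difference of 0.19 ± 0.12 that was not called (edgeR adjusted p = 0.852).

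**Figure D5:**
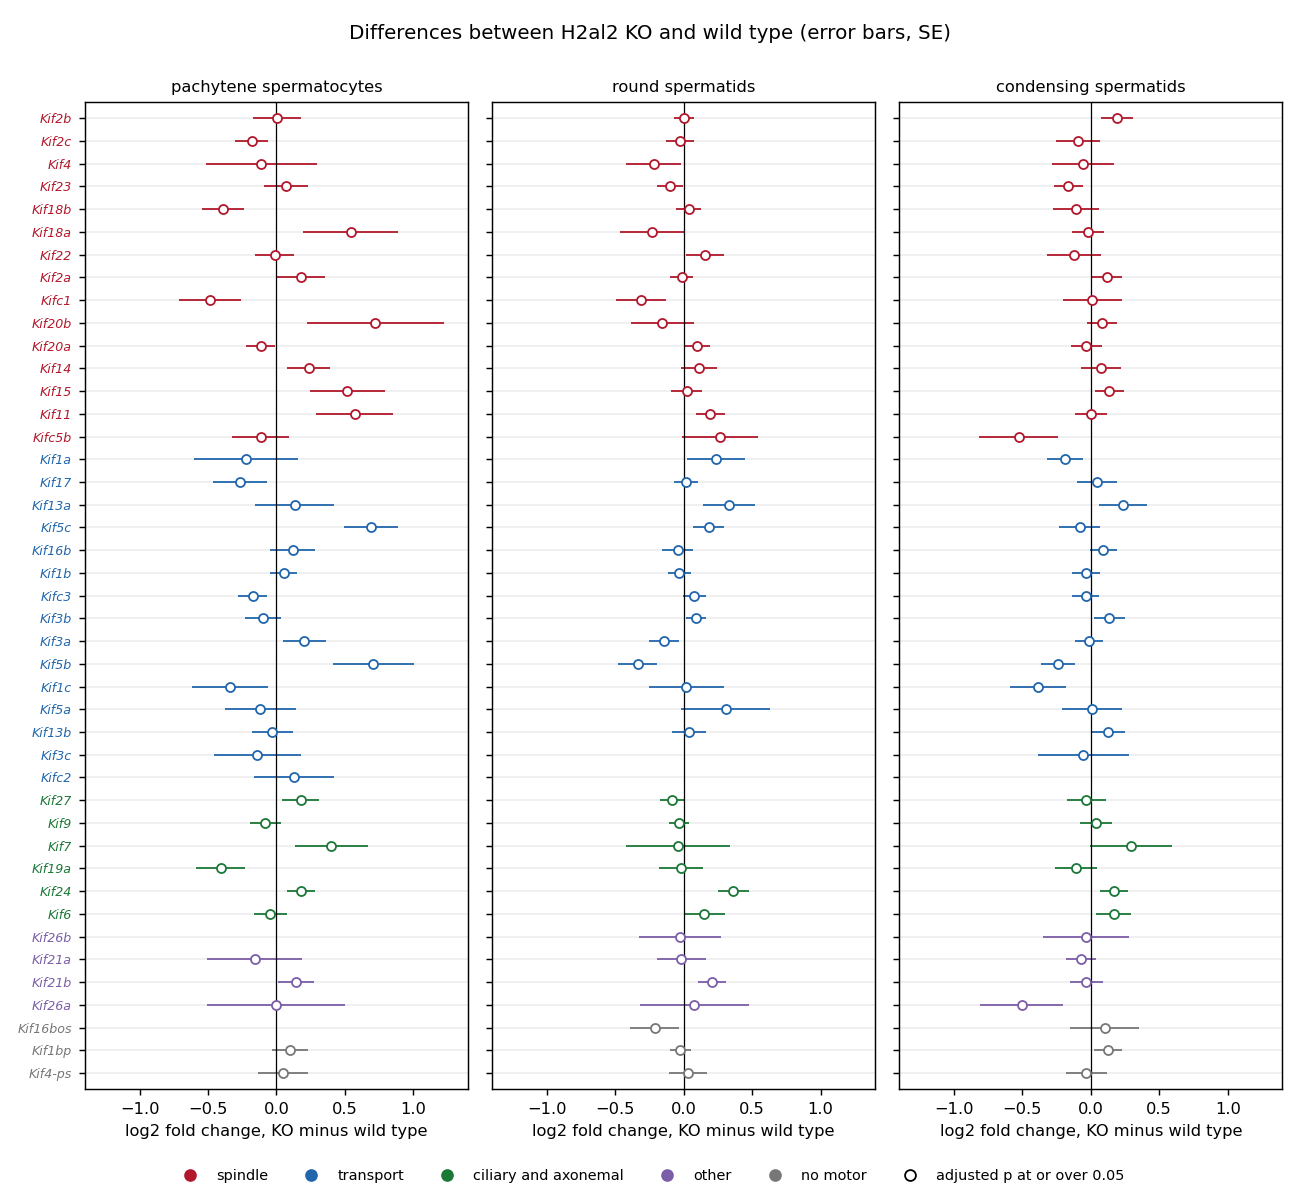
Log2 fold change of H2al2 KO over wild type (horizontal axis) with its SE for the kinesin rows tested in each of 3 stages, coloured by role. No point is filled, since no edgeR adjusted p was under 0.05, and the spread is widest in pachytene spermatocytes (-0.49 to 0.72).

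The pachytene differences turned on 1 library. Kif5b was at 43.9, 39.3 and 29.7 CPM in the KO and 23.6, 15.2 and 33.2 in wild type, and Kif20b at 97.1, 95.0 and 49.9 beside 41.8, 19.7 and 89.5, where wild-type replicate 3, the library low in elongating spermatid markers, was nearest to the KO. The same library was the lowest wild-type one in Kif2b, Kif17, Kif1a and Kif2c. Without it Kif5b (log2 difference 1.07 ± 0.22, edgeR adjusted p = 0.0462) and Kif20b (1.5 ± 0.33, adjusted p = 0.0469) were called higher in the KO, among 156 genes higher and 87 lower of 12555. The elongating spermatid markers then stood at 5422 and 5659 CPM in wild type and 3011 to 3269 in the KO, and their part in these calls was not tested.

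Interaction tests asked whether the KO effect differed between stages. None of 43 rows was called for round against pachytene or for condensing against round (edgeR), as for 0.0% of all genes in either, and 2 rows (Kif5b and Kif16bos, 4.65% against 7.25% of all genes) and 1 row (Kifc5b, 2.33% against 2.81%) had an unadjusted p under 0.05. The largest interaction terms for round against pachytene were those of Kif16bos, 1.23 ± 0.44 on the log2 scale, and Kif5b, -1.05 ± 0.31 (edgeR adjusted p = 0.676 for both). Without replicate 3 of every group 5 rows were called for round against pachytene, Kif5b and Kif20b with a lower and Kif17, Kif18b and Kif2c with a higher KO effect in round spermatids, among 336 genes higher and 395 lower of 14612.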

How the data were processed

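RNA-seq counts of 21 libraries were analysed. The authors aligned untrimmed paired reads to mm10 with STAR 2.7.11b, counted those within exons with HTSeq (reverse strand, strict intersection, no multiply aligned reads) and deposited raw counts per gene, which can lower the values of near-identical copies. The 5 rows that name no gene (34.6% to 57.7% of reads per library) were left out. Groups came from sample titles. Stage changes were tested on 9 libraries per genotype, KO effects on 6 per stage, spermatozoa on 5, and interactions on 18, with edgeR 4.0.16 (R 4.3.3) quasi-likelihood tests, TMM, filterByExpr and Benjamini-Hochberg adjustment over all genes at 0.05. SEs were derived from the F statistics. Printed levels are CPM with TMM over all libraries, per kilobase of union exons of GENCODE basic transcripts where genes are compared. A gene at 0 in a library had no counts there, which an expected count of up to 3 still allows. This limit covers counting error only. The tests were checked on simulated counts with 200 changed genes.

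Members, role lists, partner lists and promoter motifs were chosen with earlier results of these data known. Values by library are given for up to 5 genes per direction and wild-type stage comparison with the largest change among called genes of at least 1 CPM, for genes called in a KO comparison, for the 3 highest per kilobase in each stage, and for 8 genes with known roles in spermatids (Kif17, Kif9, Kif3a, Kif3b, Kifc1, Kifc5b, Kif2b and Klc3). Other genes appear as members of a list. Alternatives were DESeq2 1.42.0, its size factors in edgeR, all genes unfiltered, only genes with 10 or more counts in each library, library sizes without TMM, 1 fit over the 18 libraries of both genotypes, a replicate block, Kifc1 and Kifc5b summed, and each replicate left out. Summing wild-type round replicates 2 and 3 was added after seeing the data. Pairing was checked by correlating deviations of same-numbered libraries.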

Additional observations from a re-analysis of the deposited data

How the results depend on the processing

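Over the single kinesin values, 1487 of 1615 alternatives kept direction and side of the threshold, 126 kept the direction but lost the call, 1 gained a call and 1 turned: with Kifc5b counted in, Kifc1 from pachytene to round spermatids in the KO went from 0.07 to -0.55 (edgeR adjusted p = 0.00422). Of the wild-type calls, 15 of 21 rises and 8 of 13 falls from pachytene to round spermatids were made under every alternative, but 4 of 10 rises (Kif21a, Kif5b, Kif4-ps and Kif6) and 4 of 13 falls (Kif18b, Kif1bp, Kif23 and Kif9) from round to condensing spermatids. With at least 10 counts in every library, where 38 rows were tested, 7 fell at the first step, as did 4100 of 10809 genes. Wild-type rises at the second step numbered 6 with DESeq2 and 5 with round replicates 2 and 3 summed. The latter alternative was chosen after seeing the data. Over all genes these rises numbered 3507 of 16029 and 3548 of 14379, and the cause was not tested. Leaving out 1 replicate gave 5 to 9 wild-type rises and 4 to 13 falls at the second step (4 without replicate 1). In the KO it gave 8 to 12 falls there (8 without replicate 2). Over all genes those falls numbered 1619 of 14055 in wild type without replicate 1 and 2152 of 13921 in the KO without replicate 2. Leaving out 1 replicate also gave 0 to 2 KO effects in pachytene spermatocytes and 0 to 5 interactions for round against pachytene. The median of transport kinesins in spermatozoa then ran from -0.01 to 0.16 (0.16 without wild-type spermatozoa replicate 1). The replicate numbers were not taken to pair the libraries, since the deviations of same-numbered libraries correlated by -0.138 to 0.164 between genotypes, and between stages by -0.138 to 0.213 in wild type (replicates 1 and 3 above 0.1, replicate 2 below 0) and -0.064 to 0.065 in the KO. With the replicate block the wild-type counts were 21 rises and 14 falls, then 10 and 13, the KO counts 20 and 15, then 6 and 13, and KO effects and interactions 0, and the block changed no count of kinesins by over 1.5 times. Over all genes it moved the KO effects called from 1 higher and 1 lower to 18 and 43 in round and from 0 and 1 to 9 and 17 in condensing spermatids. Spermatozoa, at 2772995 to 3450580 counts, limit the rare kinesins most.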

Other observations

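The single H2al2 KO spermatozoa library, which was not tested, held 526 CPM of spindle kinesins in sum (635 and 649 in the 2 wild-type libraries), 998 of transport kinesins (1296 and 1353) and 209 of ciliary and axonemal kinesins (414 and 508). Within it Kif17 was at 207 CPM (579 and 639 in wild type), Kif1a at 14.8 (42.9 and 53.6), Kif21a at 3.08 (17.9 and 18.3) and Kif9 at 84.0 (164 and 233), whereas Kif3b was at 144 (146 in both), Kif2b at 79.4 (80.0 and 88.9) and Kif13b at 73.2 (30.3 and 31.7). Elongating spermatid markers summed to 11005 CPM in this library and to 29712 and 33364 in wild type, and macrophage markers to 4404 against 929 and 981. Their part in the kinesin values was not tested.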
